A study of Rattus norvegicus with 26 samples.

Results

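The proteasome genes of the rat were followed here in the thoracic aorta. All probes outside the array's controls were taken whose transcript accession matched a rat gene symbol beginning with Psma, Psmb, Psmc, Psmd or Psme in the RefSeq gene table. This rule uses names and no measured value. It gave 43 genes on 47 probes, out of 15168 named genes and 30367 probes on the array, and all 43 genes passed the filter on dim probes through at least 1 probe (46 probes in all). The genes were 30 constitutive subunits, the 5 immunoproteasome genes Psmb8, Psmb9, Psmb10, Psme1 and Psme2, and 8 others (the activators Psme3 and Psme4, the assembly chaperones Psmd5, Psmd9 and Psmd10, the testis-enriched subunit Psma8, and Psmc3ip and Psme3ip1, which share the prefix but encode partner proteins rather than subunits). Psmd11 and Psmb11 matched no probe and were not analysed here.

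The study used male spontaneously hypertensive rats, an inbred strain that develops high blood pressure, and asked what an herbal preparation changes in their aorta. Every group, the saline controls included, was of this strain and no normotensive strain was compared. Saline was given by mouth at 7.5 mL/kg (8 arrays). Songling Xuemaikang capsule (SXC), a Chinese preparation of pine needle, kudzu root and nacre powder, was given at a low dose of 236.25 mg/kg (6 arrays) or a high dose of 708.75 mg/kg (6 arrays). The fourth group received valsartan, an angiotensin receptor blocker used against high blood pressure, at 21.6 mg/kg (6 arrays, of 8 rats that the labels give for this group). Dosing lasted 4 weeks, with SXC given in the morning and at noon and valsartan in the afternoon, and the rats were killed at 28 days. No source used here gives the rats' age. RNA of each aorta was extracted separately and hybridised to its own 1-colour Agilent array.

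A level below is the log2 processed signal of a gene's brightest probe minus the 75th percentile of its own array, so a level of 0 is the brightness of that percentile. Levels of different genes come from different probes and were not compared, except in the rank correlation of level with difference given below. Differences are on the same log2 scale with the standard error (SE) of 1 limma fit over all 26 arrays. A gene is called where its Benjamini-Hochberg adjusted p over the 23744 probes tested was below 0.05, and all p-values given are adjusted in this way unless stated.

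The arrays differed in ways that follow the groups. All 8 saline arrays were scanned together, 82 days after the last treated array, and 0 scan days held both saline and treated arrays, so treatment and scan cannot be told apart in the comparisons with saline. Scanner gain also split the treated groups: all 6 valsartan arrays and high-dose arrays 3 to 6 were read at 323 to 325 V, here called the lower gain, and every remaining array at 353 to 354 V. Only the high-dose group held both gains. In fits with the gain as a term, the high-dose difference from saline therefore rests on high-dose arrays 1 and 2 alone. The valsartan difference is shifted by the gap between those 2 arrays and high-dose arrays 3 to 6, which were also scanned on other days. The share of probes with signal clearly above background was 32.4% to 56.5% over the valsartan arrays, 28.7% to 79.3% over the high-dose arrays, 70.0% to 77.0% over the low-dose arrays and 67.3% to 76.2% over the saline arrays. Saline arrays 1 and 5, 2 and 6, and 3 and 7 deviated from their group together, with correlations of 0.713, 0.660 and 0.872 over all probes, and arrays 3 and 7 also had the highest summed levels of fat marker genes in that group. Whether such arrays share RNA or a rat is not known from the labels; if they do, the saline group holds fewer than 8 rats, and the SEs and p-values against saline are too small. In whole aorta, fewer cells of a type and less RNA per cell cannot be told apart.

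The proteasome is the barrel-shaped protease that degrades proteins tagged with ubiquitin. Its core is built from alpha rings, which form the gate, and beta rings, in which Psmb5, Psmb6 and Psmb7 carry the catalytic sites. A regulatory cap binds the core, with a base of ATPases (Psmc genes) that unfold substrates and a lid (most Psmd genes) that removes ubiquitin. Interferon gamma induces the replacement subunits Psmb8, Psmb9 and Psmb10, which take the places of Psmb5, Psmb6 and Psmb7 and favour peptides for MHC class I, and the activator Psme1/Psme2, which opens the core without ATP. In the vessel wall the immunoproteasome is known mainly from immune cells and from smooth muscle and endothelial cells under inflammation.

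The 250 bases before the start site of each gene are printed below for these 5 genes, whose levels moved apart, and for Psmb5, the constitutive counterpart of Psmb8. They are from RefSeq on build GRCr8, 5′ to 3′ on the gene's strand. Capitals mark matches, on either strand, to the interferon-response motif (GAAA, any 2 bases, GAAA), the interferon gamma motif TTCNNNGAA or the antioxidant-response motif TGACNNNGC, through which the factors Nrf1 and Nrf2 act on constitutive subunits.
Psmb8, chr20:4657032-4657281, minus strand: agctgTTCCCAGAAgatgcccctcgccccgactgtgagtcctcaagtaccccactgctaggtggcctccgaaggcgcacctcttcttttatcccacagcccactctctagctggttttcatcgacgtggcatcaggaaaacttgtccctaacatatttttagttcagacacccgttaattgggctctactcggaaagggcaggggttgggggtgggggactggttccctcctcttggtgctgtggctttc
Psmb9, chr20:4668750-4668999, plus strand: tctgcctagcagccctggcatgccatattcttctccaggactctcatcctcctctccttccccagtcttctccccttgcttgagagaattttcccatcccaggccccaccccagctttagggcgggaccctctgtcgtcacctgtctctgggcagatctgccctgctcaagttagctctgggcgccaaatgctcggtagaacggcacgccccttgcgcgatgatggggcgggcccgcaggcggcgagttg
Psmb10, chr19:50743293-50743542, minus strand: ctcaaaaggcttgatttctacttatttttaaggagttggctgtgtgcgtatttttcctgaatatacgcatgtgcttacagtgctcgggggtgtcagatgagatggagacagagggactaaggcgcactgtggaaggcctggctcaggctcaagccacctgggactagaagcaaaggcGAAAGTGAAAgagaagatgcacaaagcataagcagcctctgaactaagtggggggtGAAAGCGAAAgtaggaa
Psme1, chr15:33038721-33038970, plus strand: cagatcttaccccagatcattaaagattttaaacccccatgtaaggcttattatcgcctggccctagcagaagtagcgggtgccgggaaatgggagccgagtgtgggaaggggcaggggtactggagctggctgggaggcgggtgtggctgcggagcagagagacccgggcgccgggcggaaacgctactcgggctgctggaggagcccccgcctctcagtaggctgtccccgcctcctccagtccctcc
Psme2, chr15:33052752-33053001, minus strand: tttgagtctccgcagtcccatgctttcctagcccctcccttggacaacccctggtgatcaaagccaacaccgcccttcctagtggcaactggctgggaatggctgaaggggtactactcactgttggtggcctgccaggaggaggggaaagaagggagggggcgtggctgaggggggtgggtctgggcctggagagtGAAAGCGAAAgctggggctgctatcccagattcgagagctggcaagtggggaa
Psmb5, chr15:32047380-32047629, minus strand: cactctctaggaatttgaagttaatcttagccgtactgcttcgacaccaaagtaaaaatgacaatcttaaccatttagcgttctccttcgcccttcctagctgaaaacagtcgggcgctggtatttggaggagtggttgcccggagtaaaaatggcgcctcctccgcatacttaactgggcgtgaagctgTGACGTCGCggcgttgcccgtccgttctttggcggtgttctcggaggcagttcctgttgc

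Psmb10 held the interferon-response motif at bases 73 to 64 and 17 to 8 before the start site, and Psme2 held it at bases 53 to 44. Psmb8 held the interferon gamma motif, which reads the same on both strands, at bases 245 to 237. Psmb5 held the antioxidant-response motif at bases 60 to 52, while the windows of Psmb9 and Psme1 held none of the 3 motifs. Of 39 proteasome genes with a window of this length, 5 (12.8%) held the interferon-response motif, against 3.41% of 33469 windows in the table. The 5 were Psmb10, Psme2 and the constitutive subunits Psma4, Psmb3 and Psmd7. The other motifs were found in 4 of 39 (10.3%) for TTCNNNGAA, against 7.67% of all windows, and in 7 of 39 (17.9%) for TGACNNNGC, against 10.1%. The 4 were Psmb8 and the constitutive subunits Psmc6, Psmd3 and Psmd7. The 7 were Psma3, Psmb2, Psmb5, Psmb6, Psmd1, Psmd9 and Psme4. A match is a string of letters and not a measured binding site. Psmb8 and Psmb9 lie on chromosome 20 in the order Tap2, Psmb8, Tap1, Psmb9, RT1-DMb, within the MHC, and Psme1 and Psme2 lie on chromosome 15 with Emc9 between them.

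Most constitutive proteasome genes were lower in the aortas of treated rats than in those of saline rats, while the immunoproteasome genes split. With high-dose SXC, 9 of the 43 proteasome genes rose and 22 fell, against a background of 57.1% of all tested probes called, 35.7% higher and 21.4% lower. With low-dose SXC 8 rose and 17 fell, against 39.6% of probes called, 22.5% higher and 17.1% lower. With valsartan 7 rose and 21 fell, against 58.4% of probes called, 33.2% higher and 25.2% lower. The 3 comparisons use the same 8 saline arrays. Of the 30 constitutive subunits, 20, 15 and 19 fell with the high dose, the low dose and valsartan, and 3, 5 and 3 rose.

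The median difference from saline over the 30 constitutive subunits was -0.55 with high-dose SXC, -0.40 with low-dose SXC and -0.59 with valsartan. Over all tested probes the median was 0.25, 0.09 and 0.19. The 5 immunoproteasome genes had medians of 0.25, -0.33 and 0.16. Among the 30 constitutive genes the lower differences sat on the dimmer probes and the higher ones on the brighter: Spearman's rho between a gene's mean level and its difference was 0.757, 0.670 and 0.688, against -0.286, 0.091 and -0.279 over all 23744 probes. A gene's mean level was taken over all 26 arrays, treated ones included, so a fall also lowers the mean level and the 2 quantities are not independent. These are descriptions across genes that share the same arrays, and genes are not independent replicates. The ranges of array levels did not overlap saline for 14 genes with high-dose SXC, 26 with low-dose SXC and 17 with valsartan, where 29.1%, 31% and 30.8% of all probes did not overlap. With the detector gain as a term in the fit, 4 rose and 13 fell with high-dose SXC and 2 rose and 10 fell with valsartan. In that fit 27.4% and 13.7% of all probes were called, and the constitutive medians were -0.28 and -0.17. With each of the 3 saline pairs averaged to 1 sample, and arrays 4 and 8 left out, 3 rose and 16 fell with high-dose SXC, 5 and 15 with low-dose SXC and 4 and 17 with valsartan, where 41.2%, 24% and 41.8% of all probes were called. Of called genes 29% were higher with high-dose SXC and 25% with valsartan, but 11.1% and 16% with the percentile taken over probes, and 32% with low-dose SXC became 21.7% after quantile normalization.

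**Figure D1:**
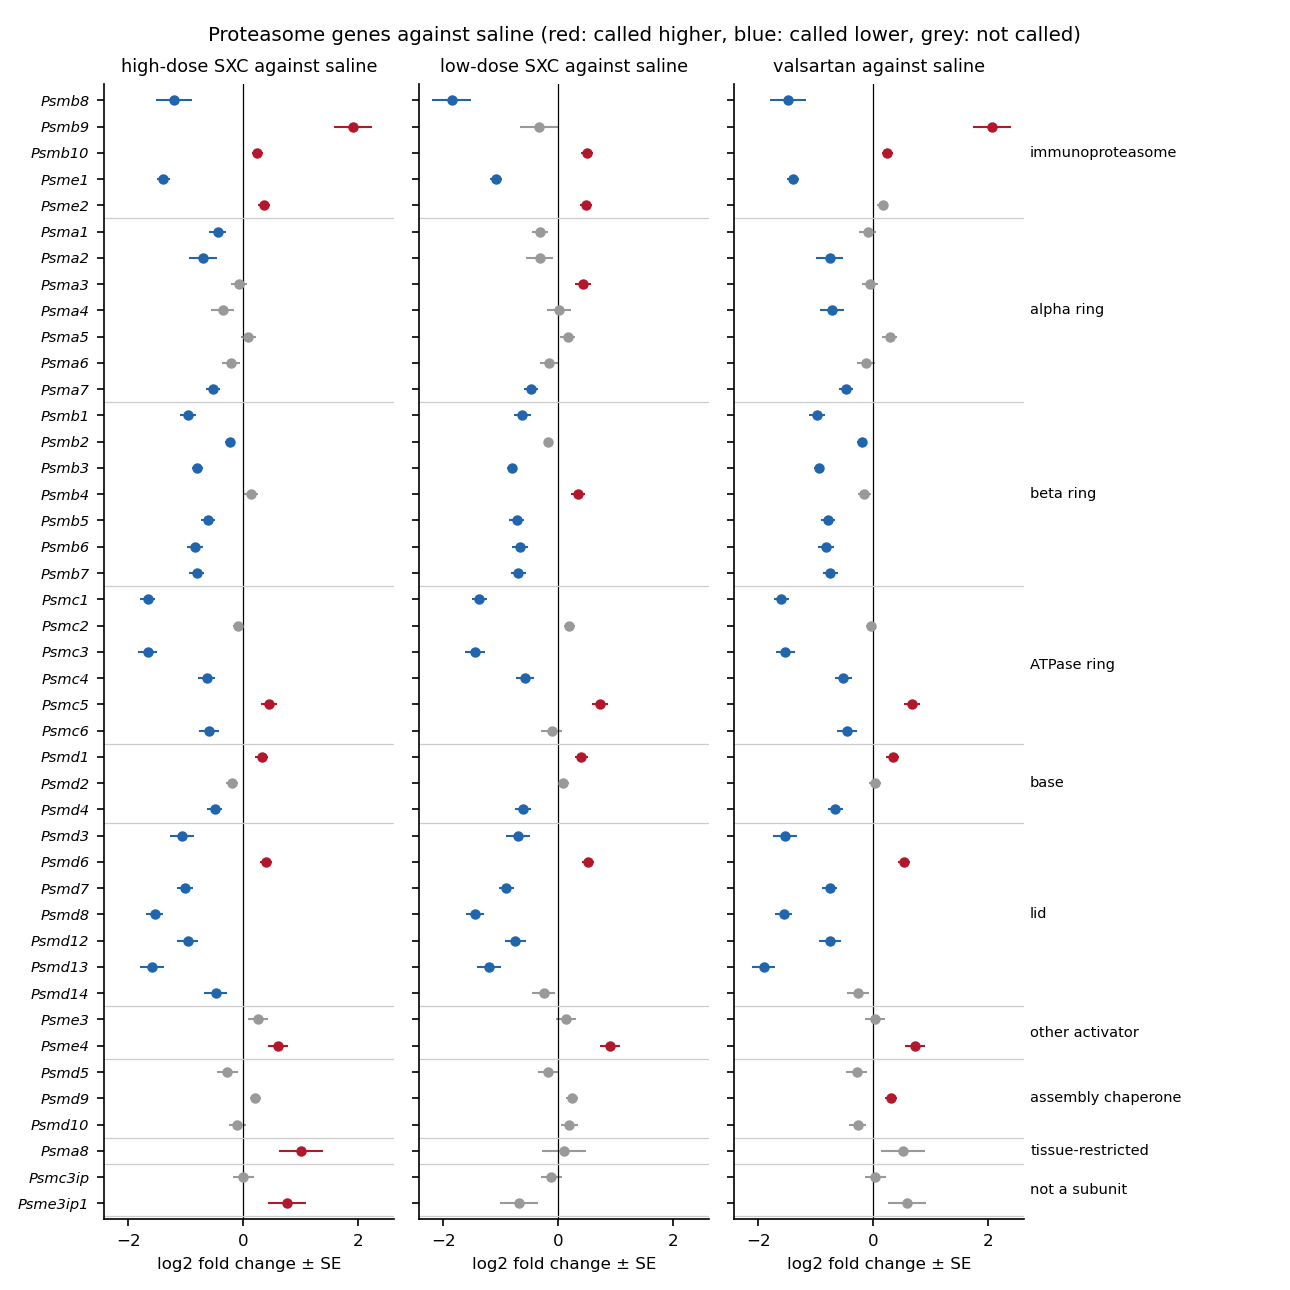
Log2 difference from saline (x axis, with its SE) for the brightest probe of each of the 43 proteasome genes (rows, grouped by role), in a panel for each treatment. Red marks genes called higher, blue genes called lower and grey genes not called; most beta ring, ATPase and lid genes lie to the left of 0, with Psmc5, Psmd6 and Psmd1 to the right in each panel.

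Psmb8 encodes the inducible subunit that replaces Psmb5. Its level in saline aortas had a lowest value of -3.23, a median of -2.77 and a highest value of -2.45. With low-dose SXC the values were -4.88, -4.65 and -4.33 over 5 arrays, array 1 having lost its only spot to an outlier mark. With high-dose SXC they were -4.82, -4.06 and -3.01, and with valsartan -5.37, -4.13 and -3.54. Every low-dose and valsartan array lay below every saline array, while the high-dose arrays reached into the saline range.

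Psmb8 was 3.62-fold lower with low-dose SXC (log2 difference -1.86 ± 0.33 SE, adjusted p = 8.44e-05). The log2 differences with high-dose SXC (-1.21 ± 0.32, adjusted p = 0.00218) and valsartan (-1.49 ± 0.32, adjusted p = 0.0003) rest in large part on arrays where the probe was near background. The probe was well above background on all 8 saline arrays, on 5 of 5 low-dose arrays, 3 of 6 high-dose arrays and 1 of 6 valsartan arrays. The calls with high-dose SXC and valsartan were lost under another background correction (normexp), where the differences were -0.06 (adjusted p = 0.793) and 0.15 (adjusted p = 0.51), and the low-dose call was lost on the authors' values (-0.84, adjusted p = 0.362). The differences were -1.94 (adjusted p = 0.00153) and -2.58 (adjusted p = 0.00263) with the gain as a term.

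Psmb9, which replaces Psmb6, went the other way. Its saline levels ran from -1.48 through a median of -1.20 to -0.79. The low-dose levels ran from -2.06 through -1.84 to -0.61, the high-dose levels from -0.80 through 1.21 to 1.67 and the valsartan levels from 0.38 through 0.77 to 1.62. All 6 valsartan arrays lay above all saline and low-dose arrays, and of the high-dose arrays only array 1, at -0.80, lay within the saline and low-dose ranges.

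The rise of Psmb9 was 3.76-fold with high-dose SXC (1.91 ± 0.33, adjusted p = 2.71e-05) and 4.19-fold with valsartan (2.07 ± 0.33, adjusted p = 9.77e-06), while the low-dose difference was -0.33 ± 0.33 (adjusted p = 0.453). These values moved with the scan. The 4 high-dose arrays at lower gain had a mean of 1.41 ± 0.25 (SD) and the 2 at higher gain a mean of -0.55, in the same dose group. Within the low-dose group, the 2 arrays of scan day 1 had a mean of -0.63 and the 4 of scan day 2 a mean of -1.92. The differences from saline with the gain as a term in the fit were 0.60 (adjusted p = 0.199) for high-dose SXC and 0.10 (adjusted p = 0.92) for valsartan, and neither was called.

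Psmb10, the replacement for Psmb7, was higher in every treated group. Saline levels ran from 1.89 through 2.03 to 2.34, low-dose levels from 2.39 through 2.51 to 2.72, high-dose levels from 1.97 through 2.29 to 2.54 and valsartan levels from 2.04 through 2.36 to 2.42. The low-dose arrays lay above all saline arrays and the other treated groups overlapped saline. Psmb10 rose by 0.50 ± 0.10 with low-dose SXC (adjusted p = 0.000295), by 0.25 ± 0.10 with high-dose SXC (adjusted p = 0.0357) and by 0.24 ± 0.10 with valsartan (adjusted p = 0.0415). The last 2 calls were lost under normexp (0.12, adjusted p = 0.349 and 0.07, adjusted p = 0.58), with the percentile over probes (0.10, adjusted p = 0.464 and 0.15, adjusted p = 0.26) and in fits that each left out 1 array, in 7 of 14 with differences of 0.20 to 0.31 (saline 2, 4, 6 or 8, high-dose 1, 2 or 5) and in 9 of 14 with differences of 0.21 to 0.29 (saline 2, 4, 5, 6 or 8, valsartan 1, 2, 3 or 4).

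**Figure D2:**
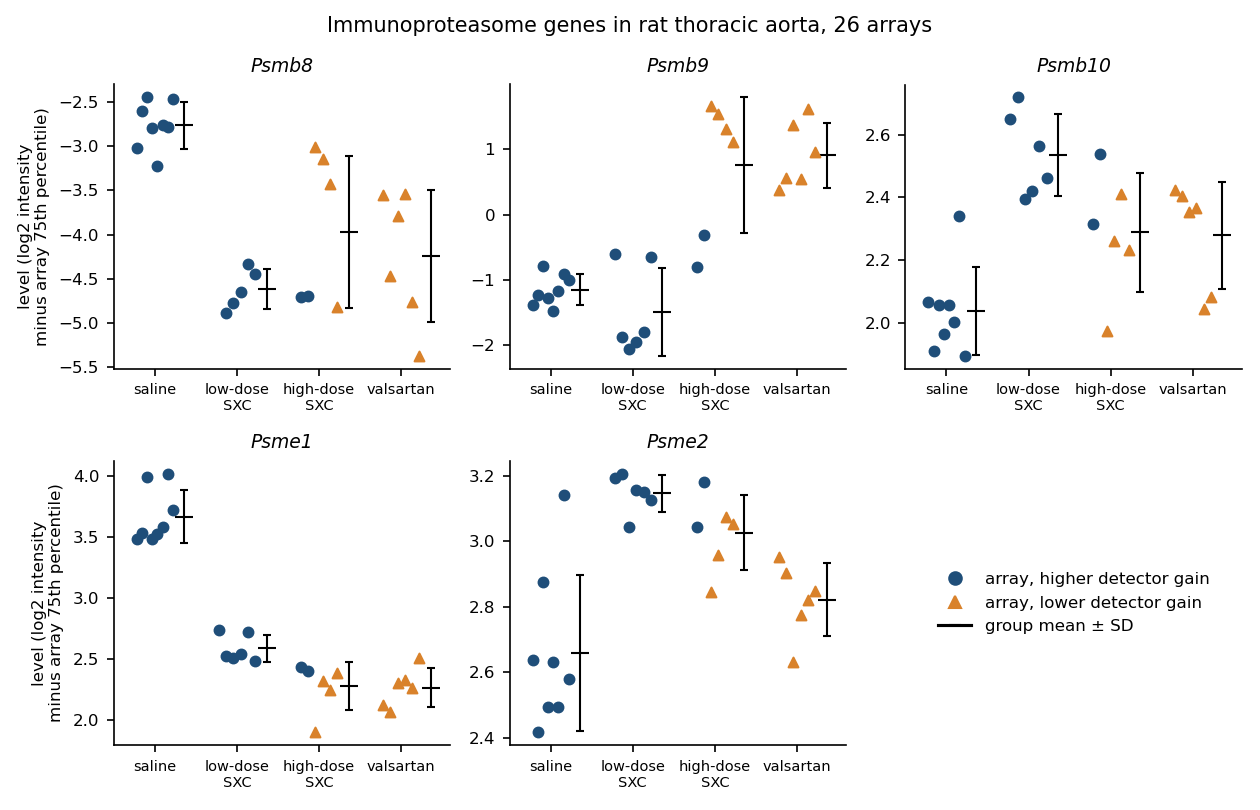
Level of each immunoproteasome gene (y axis, log2 signal minus the array's 75th percentile) by group, 1 panel per gene, with a point per array (circle for higher gain, triangle for lower gain) and the mean with its SD. Psme1 lay at 3.48 to 4.01 in saline and at 1.90 to 2.73 in the treated groups, while the triangles of Psmb9 lay above 0 in high-dose SXC and valsartan.

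The 2 genes of the interferon-induced activator went opposite ways. Psme1 ran from 3.48 through 3.56 to 4.01 in saline, from 2.48 through 2.53 to 2.73 with low-dose SXC, from 1.90 through 2.35 to 2.43 with high-dose SXC and from 2.07 through 2.28 to 2.51 with valsartan. No treated array reached the saline range. Psme1 was 2.11-fold lower with low-dose SXC (-1.08 ± 0.11, adjusted p = 2.85e-08), 2.62-fold lower with high-dose SXC (-1.39 ± 0.11, adjusted p = 2.96e-10) and 2.64-fold lower with valsartan (-1.40 ± 0.11, adjusted p = 1.75e-10). The fall was called with the gain as a term as well, at -1.25 (adjusted p = 4.19e-06) and -1.20 (adjusted p = 0.000352) for high-dose SXC and valsartan.

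Psme2, the partner subunit of Psme1 in the same ring, ran from 2.42 through 2.60 to 3.14 in saline and from 3.05 through 3.15 to 3.21 with low-dose SXC. It ran from 2.84 through 3.05 to 3.18 with high-dose SXC and from 2.63 through 2.84 to 2.95 with valsartan. Saline arrays 3 and 7, at 2.88 and 3.14, reached into the treated ranges. Saline array 1, at 2.637, lay just above the lowest valsartan array, at 2.632. Psme2 rose by 0.49 ± 0.10 with low-dose SXC (adjusted p = 0.00033) and by 0.37 ± 0.10 with high-dose SXC (adjusted p = 0.00285). The high-dose call was lost with the percentile over probes (0.22, adjusted p = 0.122). With valsartan the difference was 0.16 ± 0.10 (adjusted p = 0.163), and 0.28 (adjusted p = 0.00378) without saline arrays 3 and 7, or 0.23 (adjusted p = 0.0238) without array 7 alone. RefSeq names 3 copies or pseudogenes each of Psme1 and Psme2, and how far these probes read them was not tested.

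The catalytic subunits that the inducible ones replace all fell. Psmb5, the chymotrypsin-like subunit, ran from 1.15 through 1.33 to 1.98 in saline and from 0.62 through 0.73 to 0.86 with low-dose SXC, from 0.73 through 0.83 to 1.09 with high-dose SXC and from 0.43 through 0.70 to 0.86 with valsartan. Psmb6, the caspase-like subunit, ran from -0.58 through -0.29 to -0.12 in saline, from -1.25 through -0.97 to -0.73 with low-dose SXC, from -1.83 through -1.02 to -0.91 with high-dose SXC and from -1.40 through -1.17 to -0.94 with valsartan. Psmb7, the trypsin-like subunit, ran from -0.41 through -0.25 to -0.05 in saline, from -1.12 through -1.001 to -0.72 with low-dose SXC, from -1.44 through -0.99 to -0.87 with high-dose SXC and from -1.38 through -0.96 to -0.47 with valsartan. For each of these 3 genes, every treated array lay below every saline array.

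With the high dose, the low dose and valsartan, Psmb5 fell by 0.61 ± 0.12, 0.72 ± 0.12 and 0.79 ± 0.12 on the log2 scale (adjusted p = 0.00018, 4.26e-05 and 7.14e-06). Psmb6 fell by 0.83 ± 0.14, 0.66 ± 0.14 and 0.82 ± 0.14 (adjusted p = 1.31e-05, 0.000371 and 1.52e-05), and Psmb7 fell by 0.80 ± 0.13, 0.70 ± 0.13 and 0.75 ± 0.13 (adjusted p = 1.16e-05, 0.000128 and 2.8e-05). In the pairs Psmb6 with Psmb9 and Psmb7 with Psmb10 the constitutive gene fell, and the inducible gene rose in the comparisons given above, with the limits given there. Psmb8, the counterpart of Psmb5, was called lower too, but near background and not under every processing. The valsartan calls of Psmb6 (-0.51, adjusted p = 0.184) and Psmb7 (-0.61, adjusted p = 0.0999) were lost with the gain as a term and that of Psmb5 was not.

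In the rest of the core, the beta ring moved more than the alpha ring in number of calls. Of 7 constitutive beta subunits, 6 fell with high-dose SXC, 5 with low-dose SXC and 6 with valsartan. Of 7 alpha subunits, 3, 1 and 3 fell. The shares of all probes called lower were 21.4%, 17.1% and 25.2%. The differences of the beta subunits from saline ranged from -0.96 to 0.14, from -0.80 to 0.35 and from -0.98 to -0.16 in these comparisons, and those of the alpha subunits from -0.70 to 0.09, from -0.47 to 0.43 and from -0.76 to 0.29. The difference between the rings was not tested. Psmb4, a structural beta subunit, did not fall against saline; it ran from 3.78 through 3.87 to 4.10 in saline and from 4.15 through 4.28 to 4.34 with low-dose SXC, without overlap. It rose by 0.35 ± 0.12 with low-dose SXC (adjusted p = 0.0194), a call lost after quantile normalization (0.17, adjusted p = 0.172). Psma3, an alpha ring subunit, ran from 0.53 through 0.62 to 0.96 in saline and from 1.02 through 1.08 to 1.21 with low-dose SXC, also without overlap. It rose by 0.43 ± 0.14 (adjusted p = 0.0152), a call lost after quantile normalization (0.34, adjusted p = 0.0607).

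In the comparisons with saline, the 5 largest falls among the constitutive subunits were in the regulatory cap. Of the 6 ATPases 4, 3 and 4 fell with the high dose, the low dose and valsartan, and of the 7 lid subunits 6, 5 and 5 fell, where 21.4%, 17.1% and 25.2% of all probes were called lower. Psmc1, an ATPase of the base, ran from 1.59 through 1.66 to 1.80 in saline, from 0.16 through 0.28 to 0.53 with low-dose SXC, from -0.30 through -0.06 to 0.62 with high-dose SXC and from -0.30 through 0.12 to 0.39 with valsartan. The saline arrays lay within a narrow band and the lowest was above every treated array. Psmc1 fell by 1.66 ± 0.13 with high-dose SXC, by 1.38 ± 0.13 with low-dose SXC and by 1.61 ± 0.13 with valsartan (adjusted p = 2.54e-10, 9.76e-09 and 3.03e-10), or 3.16-fold, 2.59-fold and 3.04-fold.

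Psmc3, another ATPase of the ring, ran from 0.82 through 0.91 to 1.04 in saline, from -0.67 through -0.51 to -0.41 with low-dose SXC, from -1.15 through -0.77 to -0.22 with high-dose SXC and from -1.28 through -0.76 to 0.15 with valsartan. Its groups did not overlap saline. Psmc3 fell by 1.66 ± 0.17, 1.45 ± 0.17 and 1.54 ± 0.17 with the high dose, the low dose and valsartan (adjusted p = 1.2e-08, 2.32e-07 and 3.43e-08). The falls of Psmc1 and Psmc3 remained called with the gain as a term, at -1.29 and -1.30 for high-dose SXC and at -1.04 and -0.995 for valsartan.

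In the lid, Psmd8 had saline levels from 0.40 through 1.01 to 1.08, arrays 1 and 5 being the low ones at 0.43 and 0.40. Its levels ran from -0.70 through -0.59 to -0.47 with low-dose SXC, from -0.94 through -0.73 to -0.33 with high-dose SXC and from -1.34 through -0.60 to -0.41 with valsartan. No treated array reached saline. Psmd8 fell by 1.54 ± 0.15, 1.45 ± 0.15 and 1.56 ± 0.15 with the high dose, the low dose and valsartan (adjusted p = 6.04e-09, 3.57e-08 and 4.17e-09).

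Psmd13, also a lid subunit, ran from -0.31 through -0.26 to 0.10 in saline, from -1.48 through -1.42 to -1.17 with low-dose SXC, from -2.32 through -1.79 to -0.99 with high-dose SXC and from -2.88 through -1.80 to -1.54 with valsartan. The treated groups lay apart from saline, and the high-dose and valsartan arrays spread more widely than the low-dose arrays. Psmd13 fell by 1.58 ± 0.21, 1.20 ± 0.21 and 1.91 ± 0.21 (adjusted p = 5.52e-07, 4.76e-05 and 2.93e-08). Both genes remained called with the gain as a term, Psmd8 at -1.51 and -1.52 and Psmd13 at -1.10 and -1.19 with high-dose SXC and valsartan.

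Psmd3, a scaffold subunit of the lid, ran from -1.83 through -1.51 to -1.36 in saline, from -2.56 through -2.19 to -2.08 with low-dose SXC, from -3.28 through -2.63 to -2.02 with high-dose SXC and from -3.62 through -3.20 to -1.91 with valsartan. It was well above background on 3 of 6 valsartan arrays, and all treated arrays lay below saline. Psmd3 fell by 1.06 ± 0.21 with high-dose SXC (adjusted p = 0.000128), by 0.69 ± 0.21 with low-dose SXC (adjusted p = 0.00976) and by 1.54 ± 0.21 with valsartan (adjusted p = 8.82e-07). With the gain as a term the differences were -0.60 (adjusted p = 0.12) and -0.85 (adjusted p = 0.125) for high-dose SXC and valsartan, and neither was called. Psmd7, a lid subunit that pairs with the deubiquitinase Psmd14, fell by 1.01 ± 0.13 with high-dose SXC, 0.90 ± 0.13 with low-dose SXC and 0.76 ± 0.13 with valsartan (adjusted p = 4.93e-07, 4.97e-06 and 2.37e-05), with no overlap.

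**Figure D3:**
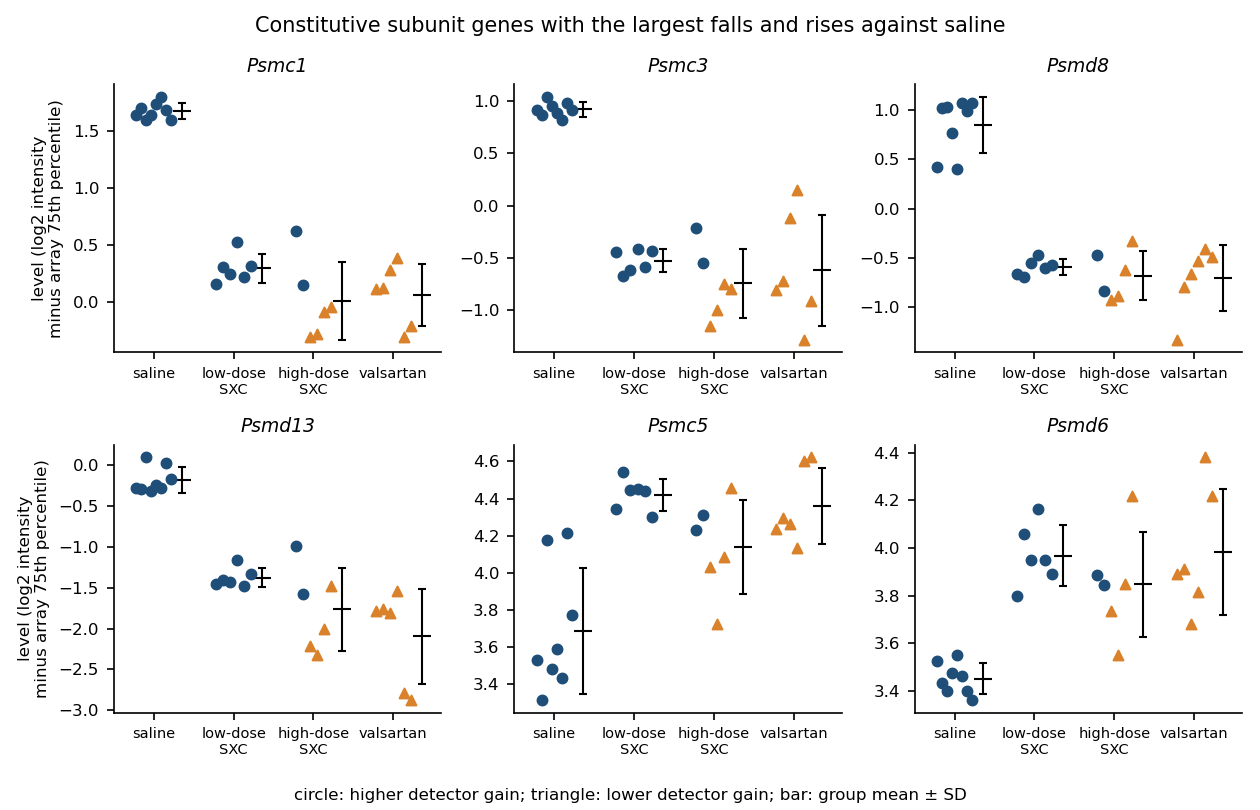
Level of 6 cap genes (y axis, log2 signal minus the array's 75th percentile) by group, a point per array (circle for higher gain, triangle for lower gain) with the mean and its SD. Psmc1, Psmc3, Psmd8 and Psmd13 lay lower in all treated arrays than in saline, and Psmc5 and Psmd6 had higher group means in treatment than in saline.

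A minority of cap genes rose. Psmc5, an ATPase of the same ring as Psmc1 and Psmc3, ran from 3.31 through 3.56 to 4.21 in saline, from 4.30 through 4.44 to 4.54 with low-dose SXC, from 3.73 through 4.16 to 4.46 with high-dose SXC and from 4.13 through 4.28 to 4.62 with valsartan. Saline arrays 3 and 7, at 4.17 and 4.21, reached the high-dose and valsartan ranges, and array 8, at 3.77, reached the high-dose range alone. Psmc5 rose by 0.73 ± 0.14 with low-dose SXC (adjusted p = 0.000133), by 0.45 ± 0.14 with high-dose SXC (adjusted p = 0.00706) and by 0.67 ± 0.14 with valsartan (adjusted p = 0.000198). The high-dose call was lost with the percentile over probes (0.30, adjusted p = 0.121) and with saline as 3 pair averages (0.43, adjusted p = 0.0511).

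Psmd6, a lid subunit, ran from 3.36 through 3.45 to 3.55 in saline, from 3.80 through 3.95 to 4.16 with low-dose SXC, from 3.55 through 3.84 to 4.22 with high-dose SXC and from 3.68 through 3.90 to 4.38 with valsartan. The low-dose and valsartan arrays lay above all saline arrays. Psmd6 rose by 0.52 ± 0.11, 0.40 ± 0.11 and 0.53 ± 0.11 with low-dose SXC, high-dose SXC and valsartan (adjusted p = 0.000393, 0.00285 and 0.000158). With the gain as a term the high-dose and valsartan calls were lost at 0.42 (adjusted p = 0.0531) and 0.56 (adjusted p = 0.0691), and the high-dose call also under normexp (0.24, adjusted p = 0.0528), with the percentile over probes (0.25, adjusted p = 0.134) and with saline as 3 pair averages (0.39, adjusted p = 0.0513).

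Psmd1, the large scaffold of the base, ran from 2.56 through 2.65 to 2.98 in saline, from 3.05 through 3.09 to 3.17 with low-dose SXC, from 2.64 through 3.00 to 3.44 with high-dose SXC and from 2.76 through 2.98 to 3.34 with valsartan. The low-dose arrays lay apart from saline. Psmd1 rose by 0.40 ± 0.11 (adjusted p = 0.00568), 0.33 ± 0.11 (adjusted p = 0.0154) and 0.34 ± 0.11 (adjusted p = 0.0117) with low-dose SXC, high-dose SXC and valsartan. The high-dose call was lost without high-dose array 6 (0.24, adjusted p = 0.0604), and all 3 calls were lost with saline as 3 pair averages (0.37, adjusted p = 0.0886; 0.30, adjusted p = 0.131; 0.31, adjusted p = 0.112).

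Outside the core and cap, 2 genes had probes that disagreed. By the brightest probe, 1 of the 2 activators was called in each comparison with saline. Of the 3 assembly chaperones 0, 0 and 1 were called with the high dose, the low dose and valsartan. The shares of all probes called were 57.1%, 39.6% and 58.4%. Psme3, the nuclear activator, was called in no comparison; its differences from saline were 0.25 ± 0.17, 0.13 ± 0.17 and 0.03 ± 0.17 with the high dose, the low dose and valsartan (adjusted p = 0.217, 0.596 and 0.893). Psme4, an ATP-independent activator linked to histone breakdown, ran on its brightest probe from 0.12 through 0.68 to 1.25 in saline, from 1.46 through 1.59 to 1.85 with low-dose SXC, from 0.53 through 1.42 to 1.71 with high-dose SXC and from 1.21 through 1.44 to 1.66 with valsartan. The low-dose arrays lay apart from saline.

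On that probe Psme4 rose by 0.61 ± 0.17, 0.90 ± 0.17 and 0.73 ± 0.17 (adjusted p = 0.0035, 0.000123 and 0.000708) with the high dose, the low dose and valsartan. Its second probe fell by 0.76 ± 0.16, 0.83 ± 0.16 and 0.54 ± 0.16 (adjusted p = 0.000283, 0.000186 and 0.00636), so no direction can be given for the gene. The chaperone Psmd9 differed between its probes in the same way with valsartan, at 0.31 ± 0.10 (adjusted p = 0.0118) on the brightest probe and -1.43 ± 0.27 (adjusted p = 8.61e-05) on the second. Psma8, an alpha subunit known from the testis, counts among the genes called with high-dose SXC although its probe cleared the background on only 3 of 6 arrays of that group and on 0 of 6 valsartan arrays.

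Psme3ip1, which encodes a protein that binds Psme3, differed between scans within a group, as Psmb9 did. It ran from -1.45 through -1.28 to -1.20 in saline, from -2.21 through -1.98 to -1.73 with low-dose SXC, from -1.92 through -0.23 to 0.58 with high-dose SXC and from -1.72 through -0.45 to -0.13 with valsartan. The high-dose arrays lay on both sides of saline. Psme3ip1 was higher by 0.77 ± 0.33 with high-dose SXC (adjusted p = 0.0465), and the high-dose arrays of lower gain were higher than those of higher gain by 2.08. Against the higher-gain high-dose arrays alone the difference from saline was -0.62 (adjusted p = 0.00143), in the opposite direction. In fits that each left out 1 array the call was lost in 12 of 14, with differences of 0.55 to 1.05; it remained called only without high-dose array 1 or 2.

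Taken by array, the constitutive class separated saline from treatment and the immunoproteasome class did not. After each gene was centred on its mean over all arrays, the median of the 30 constitutive genes was 0.20 to 0.39 over the saline arrays, -0.16 to 0.12 with low-dose SXC, -0.54 to 0.08 with high-dose SXC and -0.28 to -0.12 with valsartan. All 8 saline arrays lay above all 18 treated arrays. The median of the 5 immunoproteasome genes was -0.36 to 0.25 in saline, -0.29 to 0.13, -0.34 to 0.18 and -0.22 to 0.16 in the treated groups, with overlap throughout. This median hides the opposite moves of Psme1, Psmb8 and Psmb9. These values carry no test, because the lists were chosen with earlier results known.

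**Figure D4:**
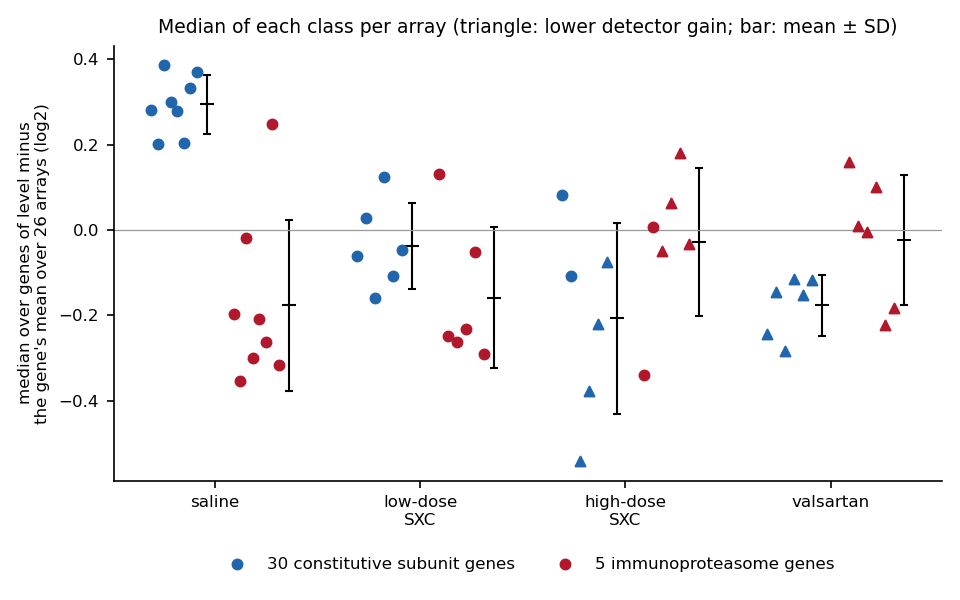
Median over genes of the centred level (y axis, log2) for each array by group, for 30 constitutive subunits and 5 immunoproteasome genes, with a point per array. The saline arrays lie at 0.20 to 0.39 for the constitutive class, above all treated arrays, and the immunoproteasome medians overlap between groups.

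The comparisons between treated groups ask whether dose or drug mattered. Between the doses 9.3% of the proteasome genes were called, against 22.2% of all probes. For valsartan against low-dose SXC the shares were near each other, at 23.3% and 25.2%, and for valsartan against high-dose SXC they were 0% and 1.37%. Between high-dose and low-dose SXC 2 of 43 genes were higher with the high dose and 2 lower, where 22.2% of all probes were called, 16.8% higher and 5.41% lower. The arrays did not overlap for 1 gene, Psme1, and for 3.96% of all probes. Psmb9 was 4.74-fold higher with the high dose (2.25 ± 0.36, adjusted p = 0.000203) and Psme3ip1 was 2.73-fold higher (1.45 ± 0.35, adjusted p = 0.00474). Psma3 was lower by -0.49 ± 0.15 (adjusted p = 0.0184) and the ATPase Psmc2 by -0.28 ± 0.10 (adjusted p = 0.0411). The count was 8 without high-dose array 1 and 2 without high-dose array 3 or 4. The Psma3 call was lost without high-dose array 3 or 4, and the Psmc2 call was lost in 8 of 12 fits that each left out 1 array (low-dose 1, 2, 3, 4 or 5, high-dose 3, 4 or 5), with differences of -0.31 to -0.24.

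Scan day 1 held 2 high-dose and 2 low-dose arrays, and within it Psmb9 differed by 0.07 and Psme3ip1 by -0.13 between doses. Over the 30 constitutive genes the median difference there was 0.03, with a range of -0.21 to 0.32. With scan day as a term in the fit of the treated arrays, 0 proteasome genes were called between the doses, and 0 of all 23744 probes.

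Between valsartan and low-dose SXC 2 genes were higher with valsartan and 8 lower, where 25.2% of all probes were called, 13.6% higher and 11.5% lower. The arrays did not overlap for 6 genes and for 14.8% of all probes. Psmb9 was 5.28-fold higher (2.40 ± 0.36, adjusted p = 4.55e-05) and Psme3ip1 2.41-fold higher (1.27 ± 0.35, adjusted p = 0.0102), both without overlap. The lower genes were Psmd3 (-0.85 ± 0.22, adjusted p = 0.00751), Psma4 (-0.73 ± 0.22, adjusted p = 0.0174), Psmd13 (-0.71 ± 0.22, adjusted p = 0.0203), Psmb4 (-0.50 ± 0.12, adjusted p = 0.00507), Psma3 (-0.48 ± 0.15, adjusted p = 0.0188), Psmd10, Psme1 (-0.32 ± 0.12, adjusted p = 0.0443) and Psme2 (-0.32 ± 0.11, adjusted p = 0.0274). Psmd10, an assembly chaperone outside the rule for named genes, is given to complete this count.

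No scan day held both of these groups. With scan day or gain as a term 0 proteasome genes were called between valsartan and low-dose SXC. In either fit 0.0126% of all probes were called. In fits that each left out 1 array, Psma4 and Psma3 lost their calls without valsartan array 5 (-0.59 and -0.42), Psmd13 without valsartan array 5 or 6 (at the weakest -0.56) and Psme2 without low-dose array 2 or valsartan array 3 (at the weakest -0.29). Psme1 lost its call in 9 of 12 such fits, with differences of -0.37 to -0.28 (low-dose 1, 2, 3, 4 or 5, valsartan 1, 2, 3 or 5).

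Between valsartan and high-dose SXC limma called 0 of 43 genes, where 1.37% of all probes were called (0.265% higher and 1.1% lower) and 1.12% did not overlap, against 0 of the 43. At an unadjusted p below 0.05, 1 gene was higher and 2 were lower, and the smallest adjusted p was 0.214. The 95% interval of the Psmb9 difference ran from -0.58 to 0.89 around 0.15, so a difference of either sign within those bounds is compatible with these arrays. Within scan day 3, which held 6 valsartan and 2 high-dose arrays, the differences were -0.48 for Psmb9, -0.33 for Psmb8, 0.18 for Psmb10, 0.12 for Psme1 and -0.13 for Psme2, with a constitutive median of 0.07. With the gain as a term, or without the 4 dimmest arrays, 1 gene was called lower, where 5.99% and 7.25% of all probes were called.

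**Figure D5:**
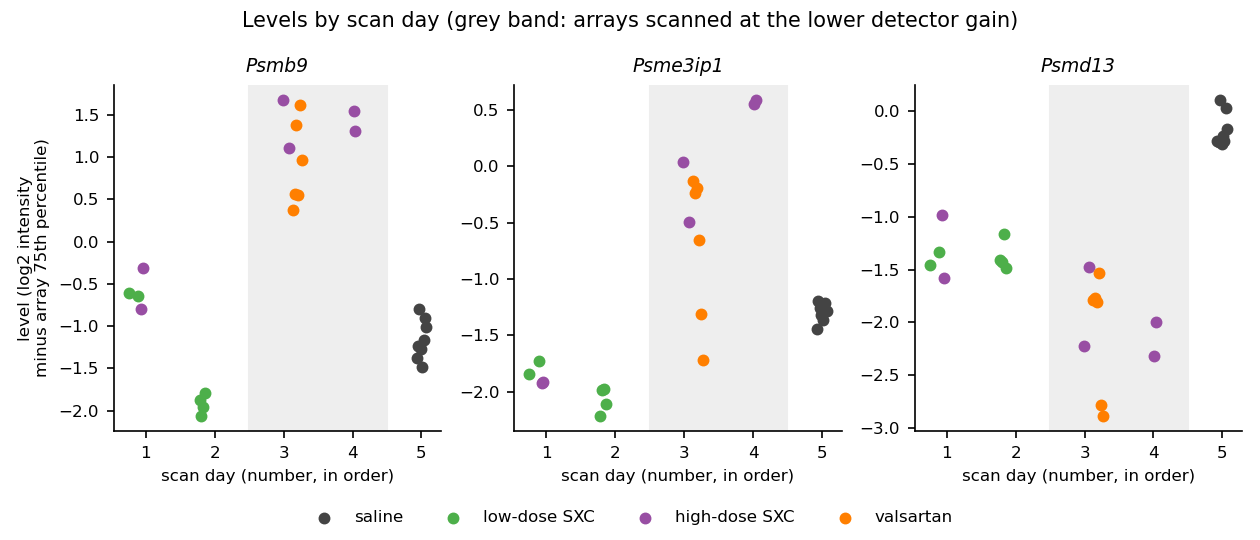
Level of Psmb9, Psme3ip1 and Psmd13 (y axis, log2 signal minus the array's 75th percentile) by scan day 1 to 5 (x axis), a point per array coloured by group, with the lower-gain scans shaded. Psmb9 and Psme3ip1 change between scan days inside the SXC groups, and Psmd13 lies highest on day 5, which holds the saline arrays alone.

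Genes that assemble, regulate or feed the proteasome moved in both directions against saline. Of 19 measured, 4 rose and 5 fell with high-dose SXC, 3 rose and 5 fell with low-dose SXC, and 5 rose and 8 fell with valsartan, with list medians of -0.23, 0.01 and -0.27. These were 21.1%, 15.8% and 26.3% higher and 26.3%, 26.3% and 42.1% lower, where 35.7%, 22.5% and 33.2% of all probes were called higher and 21.4%, 17.1% and 25.2% lower. Vcp, the segregase that pulls ubiquitinated proteins out of complexes and membranes, was lower by -1.30 ± 0.14, -1.21 ± 0.14 and -1.24 ± 0.14 with the high dose, the low dose and valsartan (adjusted p = 2.01e-08, 1.47e-07 and 3.64e-08). Psmf1, which encodes an inhibitor of the core, was lower by -0.97 ± 0.12, -0.61 ± 0.12 and -1.10 ± 0.12 (adjusted p = 2.4e-07, 0.000219 and 3.24e-08). The shuttle genes Ubqln2 and Ubqln4, whose proteins carry ubiquitinated substrates to the proteasome, were higher by 1.23 ± 0.14, 1.24 ± 0.14 and 1.10 ± 0.14, and by 1.77 ± 0.18, 1.34 ± 0.18 and 1.32 ± 0.18.

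Arrays of treated rats did not overlap saline for Vcp, Psmf1, Ubqln2 or Ubqln4. Sem1, a small cap subunit that lacks the Psm prefix, was higher by 0.35 ± 0.10, 0.52 ± 0.10 and 0.32 ± 0.10 (adjusted p = 0.00298, 0.000101 and 0.00588).

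Genes that load peptides onto MHC class I lie downstream of the immunoproteasome, and 8 of them were measured. Of these, 4, 3 and 5 fell with the high dose, the low dose and valsartan, and 1, 0 and 1 rose, with list medians of -0.47, -0.41 and -0.99, where 21.4%, 17.1% and 25.2% of all probes were called lower and 35.7%, 22.5% and 33.2% higher. B2m, the light chain of class I, was lower by -1.21 ± 0.18, -0.65 ± 0.18 and -1.40 ± 0.18 (adjusted p = 4.26e-06, 0.00573 and 4.77e-07). Tap2, a subunit of the peptide transporter and the chromosomal neighbour of Psmb8, was lower by -1.62 ± 0.25, -1.26 ± 0.25 and -1.44 ± 0.25 (adjusted p = 7e-06, 0.000284 and 3.17e-05). The treated arrays did not overlap saline for either gene. Tap1, the other transporter subunit, differed by 0.86 ± 0.64, -0.14 ± 0.64 and 0.93 ± 0.64 (adjusted p = 0.25, 0.881 and 0.212) and its probe cleared the background on 3 of 6 high-dose and 1 of 6 valsartan arrays. Under normexp it was called higher with high-dose SXC (1.10, adjusted p = 0.00403) and valsartan (1.66, adjusted p = 6.17e-05). The valsartan differences with the gain as a term were -0.68 (adjusted p = 0.145) for B2m and -0.85 (adjusted p = 0.249) for Tap2.

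Pdia3, which helps class I fold, was lower by -0.74 ± 0.19, -0.54 ± 0.19 and -0.94 ± 0.19 (adjusted p = 0.00144, 0.022 and 0.000128). The high-dose and valsartan differences of Pdia3 with the gain as a term were -0.38 (adjusted p = 0.29) and -0.40 (adjusted p = 0.492), and its low-dose call was lost without low-dose array 1 or 5. The chaperone Calr was higher with high-dose SXC (0.70 ± 0.24, adjusted p = 0.0165), a call lost with the gain as a term (0.61, adjusted p = 0.217) and without saline arrays 3 and 7 (0.33, adjusted p = 0.0875). Tapbp, the tapasin gene, was lower with valsartan (-1.04 ± 0.21, adjusted p = 0.000152) but well above background on 1 of 6 valsartan arrays, and under normexp it was higher (0.42, adjusted p = 0.0362).

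In the interferon gamma path, 5 of 11 measured genes fell and 1 rose in each comparison with saline. These were 45.5% lower against 21.4%, 17.1% and 25.2% of all probes, and 9.09% higher against 35.7%, 22.5% and 33.2%. The list medians were -0.56, -0.68 and -0.62, and 0 of the 26 arrays had Ifng itself well above background. The receptor gene Ifngr1 was lower by -1.45 ± 0.14, -1.53 ± 0.14 and -1.75 ± 0.14 (adjusted p = 7.42e-09, 7.9e-09 and 3.35e-10), and the kinase genes Jak1 (-1.50, -1.27 and -1.41) and Jak2 (-1.33, -1.56 and -1.43) were lower as well. Gbp2, an interferon-induced GTPase gene, was lower by -1.53 ± 0.18, -1.06 ± 0.18 and -1.44 ± 0.18.

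Markers of other cell types differed between the same groups, where 21.4%, 17.1% and 25.2% of all probes were called lower and 35.7%, 22.5% and 33.2% higher with the high dose, the low dose and valsartan. Of 11 macrophage markers 9, 8 and 10 fell in these comparisons, and their summed log2 level was 5.04 to 5.94 in saline, 5.50 to 5.87 with low-dose SXC, 4.24 to 5.35 with high-dose SXC and 3.25 to 4.56 with valsartan. The macrophage marker Mrc1 was well above background on no high-dose array, and Cd163 and Mrc1 on no valsartan array. All 6 measured red cell markers fell in each comparison, with a summed level of 7.87 to 9.35 in saline and 2.05 to 4.97 in treated aortas. Of these, Hemgn was well above background on no low-dose array and Slc4a1 on no valsartan array. Of 8 smooth muscle markers 3 rose in each comparison and 2, 1 and 2 fell, with a summed level of 6.17 to 8.02 in saline and 7.11 to 7.97 in treated aortas, and each was well above background on at least 1 array of every group, so the defining markers of the vessel's muscle layer were present.

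Among 8 measured endothelial markers 6, 6 and 5 fell and 1 rose, and among 5 white fat markers 4 fell in each comparison. Of 4 brown fat markers 1, 2 and 4 fell. Of 5 fibroblast markers 3, 2 and 3 fell. The endothelial markers Tek and Tie1 were well above background on no high-dose array, and Cldn5, Esam, Nos3 and Tek on no valsartan array. The same held with valsartan for the white fat marker Lep and the brown fat markers Dio2 and Ppargc1a. Of 4 tested T cell markers 3, 0 and 2 rose, with a summed level over 8 markers of -0.997 to 0.37 in saline, -1.12 to 0.47 with low-dose SXC, 0.23 to 2.64 with high-dose SXC and 1.10 to 1.90 with valsartan. Some defining markers of T cells were well above background on no array of a group. These were Cd3e, Cd5 and Cd8a in saline, Cd2 and Cd8a with low-dose SXC, and Cd2, Cd3e and Cd8a with high-dose SXC. With valsartan they were Cd2, Cd3e, Cd4, Cd5, Cd8a and Lck. The summed level of 4 neutrophil markers was -1.58 to -0.28 in saline, -2.82 to -0.24 with low-dose SXC, -0.88 to 3.02 with high-dose SXC and 1.69 to 2.90 with valsartan. In each comparison 1 of these markers rose and 2 fell. The marker that rose was Elane, the neutrophil elastase gene, higher by 6.80, 2.78 and 7.48. The lowest differences among the 4 were -4.08, -4.28 and -3.35 in the same order. S100a8 was well above background on no high-dose or valsartan array. The 1 tested B cell marker rose with high-dose SXC alone. The part of these cell types in the proteasome results was not tested.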

How the data were processed

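Each array file holds, per the file headers, the spot intensities and flags that Agilent Feature Extraction 11.0.1.1 wrote for 1 Cy3 channel. The processed signal is an intensity that the software had already corrected for background. The deposited flags for outliers and for signal well above background are coded values in columns of their own. The deposited series table holds the authors' normalized log2 values, with column medians of 5.75 to 5.76; no source used here gives how they were normalized.

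Here the log2 processed signal had outlier-marked spots removed and spots of a probe averaged, and each array's 75th percentile over gene spots was subtracted. Testing was limited to probes flagged above background, for at least 0.5 of their spots, on 6 or more of 26 arrays (23744 of 30367). Accessions matched 1 RefSeq symbol for 18005 probes, several for 0 and none for 12362. The file headers name the build rn4 and the gene table is of GRCr8, so probes are given no coordinates. A gene was read from its brightest tested probe.

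The fit was limma 3.58.1 (lmFit, contrasts, eBayes with trend, two-sided) under R 4.3.3, with no covariate, and Benjamini-Hochberg adjustment. Nothing in the labels says that arrays pair by replicate number, and same-numbered arrays of 2 groups did not all deviate together (at most 2 of 6 pairs had a correlation over 0.1). The number of arrays limits the precision. Alternatives changed the background correction, scaling, filter, probe, slide, gain, replicates and saline arrays. Normexp (offset 50) used the median spot signal, since the mean signal planned for it is not a column of these files. The fit was tested on simulated data with independent noise on each array. Those data held no scan, gain, slide or array-pair effects, so the test cannot speak to SEs and p-values under such effects.

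Genes named are the 5 immunoproteasome genes, Psmb5, Psmb6, Psmb7, Psme3 and Psme4, and in each comparison up to 5 rises and 5 falls of other called genes, if the brighter group's arrays all showed the probe well above background. Genes whose probes were called in opposite directions and up to 4 genes of each related list by p in comparisons with saline are named too. The members, lists and related genes were chosen with earlier results of these data known. Some genes that this rule names are not reported here. The names that complete a count were chosen after their values were seen, as were the alternatives with the gain as a term, the percentile over probes, and without saline arrays 3 and 7, saline arrays 4 and 8 or the 4 dimmest arrays.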

Additional observations from a re-analysis of the deposited data

Results flagged for a closer look

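In 100 groups of arrays looked at (25 genes), 8 held 1 array that stood apart from the others by Dixon's test, and chance alone gives about 1 in 20. Saline array 7 had a Psmb10 level of 2.34, against 1.89 to 2.07 on the other saline arrays. High-dose array 6 had a Psmb5 level of 1.09, against 0.73 to 0.86, and a Psmd9 level of 1.48, against 0.95 to 1.10. High-dose array 3, the dimmest array, had a Psmb7 level of -1.44, against -1.05 to -0.87, and a Psme1 level of 1.90, against 2.24 to 2.43. Low-dose array 2 had a Psmd3 level of -2.56, against -2.22 to -2.08, and low-dose array 4 a Psmd7 level of -0.73, against -1.01 to -0.94. Valsartan array 4 had a Psmd3 level of -1.91, against -3.62 to -3.08 on the other valsartan arrays.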

How the results depend on the processing

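The count of called genes was 31 with high-dose SXC, 25 with low-dose SXC and 28 with valsartan against saline, 4 and 10 for the high dose and valsartan against the low dose, and 0 for valsartan against the high dose. The shares of all probes called were 57.1%, 39.6%, 58.4%, 22.2%, 25.2% and 1.37%, in the same order. With the gain as a term the gene counts were 17 with high-dose SXC and 12 with valsartan against saline, 0 and 0 against the low dose, and 1 between valsartan and the high dose. The probe shares there were 27.4%, 13.7%, 0%, 0.0126% and 5.99%. Without the 4 dimmest arrays the gene count between valsartan and the high dose was also 1, where 7.25% of all probes were called. Saline as 3 pair averages gave 19 with high-dose SXC, where 41.2% of all probes were called. Between the doses the count was 11 under normexp, 10 with the percentile over probes and 2 with slide as a random block. The probe shares there were 45.4%, 25.6% and 6.81%. The count was 0 with scan day as a term, with slide as a term or on higher-gain arrays alone, where 0%, 0.0674% and 0% of all probes were called. Valsartan against the low dose gave 6 on the authors' values, 1 with slide as a random block and 0 with scan day as a term. The probe shares there were 23.8%, 7.75% and 0.0126%. Leaving out 1 array at a time gave counts of 26 to 30, 25 to 26 and 25 to 29 against saline, 2 to 8 and 7 to 10 against the low dose, and 0 to 0 for the last. With a replicate block the counts were 26, 25, 27, 4, 9 and 0, in the same order, and no count moved by over 1.5 times. The probe shares there were 52.4%, 34.1%, 53%, 19.7%, 22.8% and 0.455%.

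The immunoproteasome median minus the constitutive median was 0.81, 0.06 and 0.76 against saline, 0.07 and -0.19 against the low dose and -0.06 between valsartan and the high dose. Leaving out 1 array gave 0.76 to 0.87, -0.11 to 0.20, 0.69 to 0.82, -0.01 to 0.12, -0.26 to -0.10 and -0.23 to -0.02, and the replicate block gave 0.81, 0.11, 0.80, 0.07, -0.19 and -0.06. For valsartan against saline it was 0.51 under normexp and 0.27 with the gain as a term, for low-dose SXC it was 0.36 with slide as a random block, and between valsartan and the high dose it was -0.29 on lower-gain arrays and with the gain as a term.

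Of the named genes' values under the alternatives, 16 turned direction, 26 gained a call, 3206 kept their direction and side of the threshold, and the rest lost a call. Under normexp Psmb8 (0.15) and Tapbp (0.42) turned with valsartan against saline and Psmd3 (0.047) with valsartan against the low dose. With the median of a gene's probes Psme4 turned with high-dose SXC (-0.078) and Psmd9 with valsartan (-0.56). Psme3ip1 turned against saline with high-dose SXC (-0.62 on higher-gain arrays and with the gain as a term), between the doses (-0.13 with scan day and -0.19 with slide as a term) and for valsartan against the low dose (-0.61 with scan day and -0.82 with the gain as a term). In that last comparison Psmb9 (-0.41), Psma4 (0.073) and Psma3 (0.32) turned with scan day as a term, and Psma3 (0.094) and Psmd13 (0.0079) with the gain. The cause of these changes was not tested. Slide as a fixed block could not be fitted for valsartan. Levels near background limit Psmb8, Psmd3, Psma8 and Tapbp, which were not well above background on every array.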
